A study of Mus musculus with 6 samples.

Results

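Wide promoter regions were examined in open chromatin of the mouse embryonic face. They were chosen on the peak lists themselves. Overlapping peaks of all 6 lists were merged at 1 bp of overlap, and a merged region was selected if it was called in every list, spanned at least 1500 bp and had its strongest summit within 1000 bp of a protein-coding start site. Of 382006 merged regions, 69940 were called in all 6 lists, 17717 of these lay at promoters, and 1045 met the rule. The 1045 regions made up 5.90% of the promoter regions called in all lists and were nearest to 1038 genes. The remaining 16672 promoter regions called in all lists were narrower, and 12449 of those held a start site, which makes them the closest comparison. The other 52223 regions called in all lists were distal.

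The tissue was freshly dissected face of wild-type embryos at stage E11.5, profiled as whole tissue by ATAC-seq (Tn5 transposase inserts adapters where DNA is accessible). The maxillary process (future upper jaw), the mandibular process (future lower jaw) and the nose were each represented by 2 libraries, all untreated and of mixed cell types. For the 4 jaw libraries the list names and the sample labels disagreed on which jaw process was meant, and groups follow the labels. Whether the 2 libraries of a label were taken from different embryos is not stated, and p-values then measure only the spread between these libraries, which may be technical. In bulk tissue, opening in fewer cells and less opening per cell cannot be told apart.

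The lists held 219779 to 299731 summits. The first maxillary process library had the shortest list and the second maxillary process library one of the longest, so values of the maxillary label are given for both. No depth in reads was available for these libraries. Among genes fixed as cell type markers, 30 of 31 general facial mesenchyme genes had a promoter region called in all lists. The counts were 13 of 19 for surface and oral epithelium, 10 of 13 for neurons and 9 of 14 for endothelium. Schwann precursors and melanoblasts had 6 of 12, head muscle 4 of 13 and blood and macrophages 2 of 14. Over all protein-coding genes it was 13281 of 21827, or 60.8%.

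As background, most vertebrate promoters sit in CpG islands, stretches of DNA rich in G and C where CpG dinucleotides escaped the loss that methylation causes elsewhere in the genome. Active promoters have a nucleosome-depleted stretch just upstream of the start site, followed by a row of positioned nucleosomes on the transcribed side. Tn5 cuts in the depleted stretch and, less often, in the linkers between nucleosomes, so a wide open region at a promoter usually joins several neighbouring gaps.

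The 150 bases from 170 to 21 bp upstream of the start site are shown for the widest regions, to show how CpGs are packed just upstream of the start. In some of them, Kcnc2, Cdk13 and Tsc22d1 among them, the strongest summit lay outside this window. They were read from GRCm38 on the gene's strand, written 5′ to 3′, with each CpG in capitals. Among the widest regions, 5 whose window held no annotated exon were those of Cpeb2 (chr5:43233000-43233149, plus strand), Kcnc2 (chr10:112270951-112271100, plus strand), Tsc22d1 (chr14:76414791-76414940, plus strand), Cdk13 (chr13:17805118-17805267, minus strand) and Phlpp1 (chr1:106171582-106171731, plus strand).
Cpeb2: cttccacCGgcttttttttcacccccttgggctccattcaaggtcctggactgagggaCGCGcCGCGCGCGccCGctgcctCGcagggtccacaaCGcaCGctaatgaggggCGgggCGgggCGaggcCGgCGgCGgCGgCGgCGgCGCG
Kcnc2: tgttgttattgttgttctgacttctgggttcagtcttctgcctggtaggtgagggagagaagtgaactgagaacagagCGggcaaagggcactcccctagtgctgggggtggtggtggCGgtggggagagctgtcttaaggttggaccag
Tsc22d1: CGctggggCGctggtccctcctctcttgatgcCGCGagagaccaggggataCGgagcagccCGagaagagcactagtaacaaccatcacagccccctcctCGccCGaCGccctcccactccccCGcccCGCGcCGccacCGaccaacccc
Cdk13: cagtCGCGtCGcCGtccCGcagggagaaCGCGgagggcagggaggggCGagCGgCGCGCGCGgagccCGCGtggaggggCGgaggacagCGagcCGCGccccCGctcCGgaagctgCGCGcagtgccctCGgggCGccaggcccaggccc
Phlpp1: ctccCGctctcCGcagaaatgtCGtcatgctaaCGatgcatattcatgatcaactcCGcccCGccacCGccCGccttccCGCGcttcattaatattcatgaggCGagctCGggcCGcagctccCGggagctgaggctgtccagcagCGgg

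In these windows Cpeb2 held 22 CpGs, Cdk13 25, Phlpp1 15 and Tsc22d1 14, whereas Kcnc2 held 2. The same window held a median of 15 CpGs over the 1045 wide regions, with 6 at the 10th and 25 at the 90th percentile, and a median of 10 over the narrower regions holding a start site. Over its whole region Kcnc2 held 114 CpGs and Cpeb2 330. The wide regions with the highest and the lowest GC content around their summit, under the same conditions, were those of Ppp4r1 (chr17:65783196-65783345, plus strand) and Cped1 (chr6:21985746-21985895, plus strand).
Ppp4r1: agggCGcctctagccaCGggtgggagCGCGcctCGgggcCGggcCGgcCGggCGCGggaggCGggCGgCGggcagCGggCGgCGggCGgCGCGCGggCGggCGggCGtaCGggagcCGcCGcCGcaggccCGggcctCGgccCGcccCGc
Cped1: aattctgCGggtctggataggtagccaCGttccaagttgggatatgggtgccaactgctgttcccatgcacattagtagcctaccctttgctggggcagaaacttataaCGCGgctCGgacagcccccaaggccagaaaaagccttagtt

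The Ppp4r1 window held 31 CpGs and 6 GC boxes, the letters GGGCGG on either strand that Sp and Klf factors bind. The Cped1 window held 5 CpGs and no GC box. For contrast, ribosomal protein genes, which are transcribed at high rates in all cells, had 73 narrower regions holding a start site with a median width of 697 bp. A pair of those near that median, under the same conditions, were Rpl11 (chr4:136053414-136053563, minus strand) and Rpl32 (chr6:115808768-115808917, minus strand).
Rpl11: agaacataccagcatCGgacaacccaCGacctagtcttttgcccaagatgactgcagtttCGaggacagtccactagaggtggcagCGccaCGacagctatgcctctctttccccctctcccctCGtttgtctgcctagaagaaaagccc
Rpl32: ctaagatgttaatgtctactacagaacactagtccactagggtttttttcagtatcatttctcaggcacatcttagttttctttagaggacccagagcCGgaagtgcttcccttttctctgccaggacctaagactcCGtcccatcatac

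Rpl32 held 2 CpGs and Rpl11 6 in this window. The ribosomal windows thus overlapped those of the wide regions in CpG number, and a single window does not tell the kinds of promoter apart.

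The widest region belonged to Cpeb2, which encodes an RNA-binding regulator of translation, and spanned 2673 bp (chr5:43232699-43235371). Peaks covered 2216 and 2603 bp of it in the maxillary process libraries, 2320 and 2503 bp in the mandibular process libraries and 2394 and 2620 bp in the nose libraries. The 3 labels overlapped, and the lowest value came from the first maxillary process library. Schip1, a gene for a cytoskeletal adaptor protein, followed with 2566 bp, of which 2058 and 2489, 2059 and 2110, and 2311 and 2329 bp were covered in the same order of labels. Kcnc2, a voltage-gated potassium channel gene, spanned 2540 bp and Tpbg, the gene of a cell-surface glycoprotein, 2494 bp. Chst2, which encodes a sulfotransferase, spanned 2421 bp (chr9:95405481-95407901) and was a single interval in every list, with 2324 and 2336, 2373 and 2339, and 2349 and 2408 bp covered. It was therefore the clearest case of unbroken opening among the 10 widest.

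The other 5 of the 10 widest regions spanned 2352 to 2397 bp. They were nearest to Tsc22d1, a leucine zipper protein gene induced by TGF-beta, Sdc1, the gene of the heparan sulfate proteoglycan syndecan-1, Lpxn, a focal adhesion adaptor gene, Cdk13, a kinase acting on RNA polymerase II, and Fbn2, which encodes a fibrillin of the extracellular matrix. Fbn2 was covered over 1863 and 2257, 1990 and 1883, and 2199 and 2195 bp in the maxillary, mandibular and nose libraries. Cdk13 was covered over 2174 and 2344, 2183 and 2236, and 2116 and 2335 bp. In neither region did the 2 libraries of a label stand apart from the other 4.

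**Figure D1:**
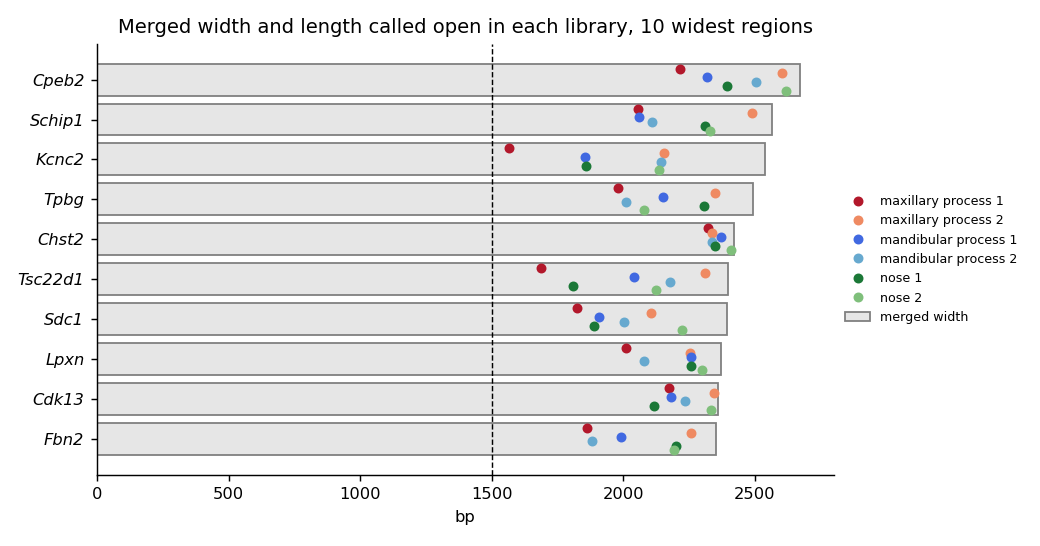
Merged width (grey bars, bp) and length covered by peaks in each of the 6 libraries (points, bp) for the 10 widest promoter regions, with the 1500 bp limit dashed. In 9 of the 10 regions the first maxillary process library has the lowest value, for example 1567 bp of 2540 bp in Kcnc2, and in Cdk13 the first nose library is lowest.

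Widths ran from 1500 to 2673 bp with a median of 1642 bp, and the 25th percentile was 1557 bp. Just inside the limit, Cdkn2aip, Cldn5, Cmtm3, Desi1 and Gfod1 each spanned 1500 bp. Just outside it, Dach2, Insig1, Klrg2 and Pnrc1 spanned 1499 bp and Tet2 1498 bp. Nothing separates these neighbours but the limit. The endothelial tight-junction gene Cldn5 thus counts and the DNA demethylation gene Tet2 does not.

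Width over the merged lists was not width in a single list. A single interval of at least 1500 bp was present in every list for 31 regions, or 2.97%, and in no list for 449 regions, or 43.0%. By library, 63 and 415 of the 1045 regions held such an interval in the maxillary process libraries, 228 and 220 in the mandibular process libraries and 199 and 268 in the nose libraries. The maxillary libraries thus gave both the lowest and the highest count. The length covered by peaks had medians of 1304 and 1542, 1461 and 1457, and 1444 and 1479 bp in the same order. The median number of summits per region was 7 in every library, against 3 or 4 in the narrower regions holding a start site. Over all lists the most summits, 70, fell in Chst2 and Cpeb2, followed by Schip1 with 68 and by Cdk13 and Mier3, the latter a chromatin cofactor gene, with 67 each.

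The wide regions were longer without having higher folds. The authors' fold was read as the height of a summit over its local background within the library. Its highest value per wide region had medians of 9.72 and 8.75 in the maxillary process libraries. The medians were 9.02 and 8.98 in the mandibular process libraries and 9.24 and 9.06 in the nose libraries. In the narrower regions holding a start site the medians were 10.5 and 10.7, 10.6 and 10.4, and 10.6 and 10.5. The wide regions were thus lower in 6 of 6 libraries. The highest deposited −log10 q, a measure of confidence, was higher in 6 of 6, with medians of 28.6 to 40.2 against 22.3 to 36.5. Since width was what chose the regions and wide regions hold more summits, these are descriptions with no test. Both of the widest regions lay below these medians in every library, Cpeb2 at 7.53 and 5.96, 6.67 and 5.90, and 6.82 and 6.51, and Schip1 at 6.68 and 4.98, 5.99 and 6.15, and 5.65 and 5.52.

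Opening reached farther into the gene than away from it. From the nearest start site the wide regions extended a median of 984 bp downstream and 679 bp upstream, and 71.4% of them (95% Wilson interval 68.6 to 74.0%) extended farther downstream. In the narrower regions holding a start site the medians were 523 and 349 bp and the share 65.5% (64.7 to 66.4%). These and later intervals cover counting error only and treat regions as independent. Stox2, a gene for a winged-helix protein, extended 2045 bp downstream and 212 bp upstream, and Cpeb2 2201 and 471 bp. Cdk6, a cell cycle kinase gene, ran the other way with 97 bp downstream and 2093 bp upstream, as did Kcna2, a potassium channel gene, with 52 and 1620 bp. By base, 27.5% of the wide regions lay outside protein-coding genes, 41.4% in introns, 19.8% in untranslated exon sequence and 11.4% in coding exons, close to the 27.6, 39.2, 23.3 and 9.84% of the narrower regions.

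Summits in the wide regions fell in a repeating pattern around the start site. The first maximum lay between −30 and 10 bp in the 6 libraries, and a minimum followed at 90 to 110 bp. Downstream maxima lay at 230 bp and at 410 bp in all 6 libraries and at 590 to 610 bp, and an upstream maximum at −350 to −310 bp. Adjacent summits within a library were a median of 202 to 212 bp apart. Each position is the highest, or for the minimum the lowest, point within a stretch fixed beforehand. A position is returned for each stretch even without a peak, and the same stretches served both kinds of region. In the narrower regions the positions were nearly the same, −10, 230, 410 and 570 to 590 bp, with −290 to −270 bp upstream. The position at 570 to 590 bp need not be a peak. In the first maxillary process library, the narrower regions had 6.66, 6.53, 6.14 and 4.35 summits per 100 regions in the steps starting at 500, 550, 600 and 650 bp. The values farther out are set in part by the rule, which chose the regions for their width, and are given as a description. Between 400 and 450 bp downstream, the wide regions had 26.1 to 29.7 summits per 100 regions and the narrower ones 14.9 to 18.3. Between 600 and 650 bp the values were 20.2 to 24.0 and 6.14 to 7.94.

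**Figure D2:**
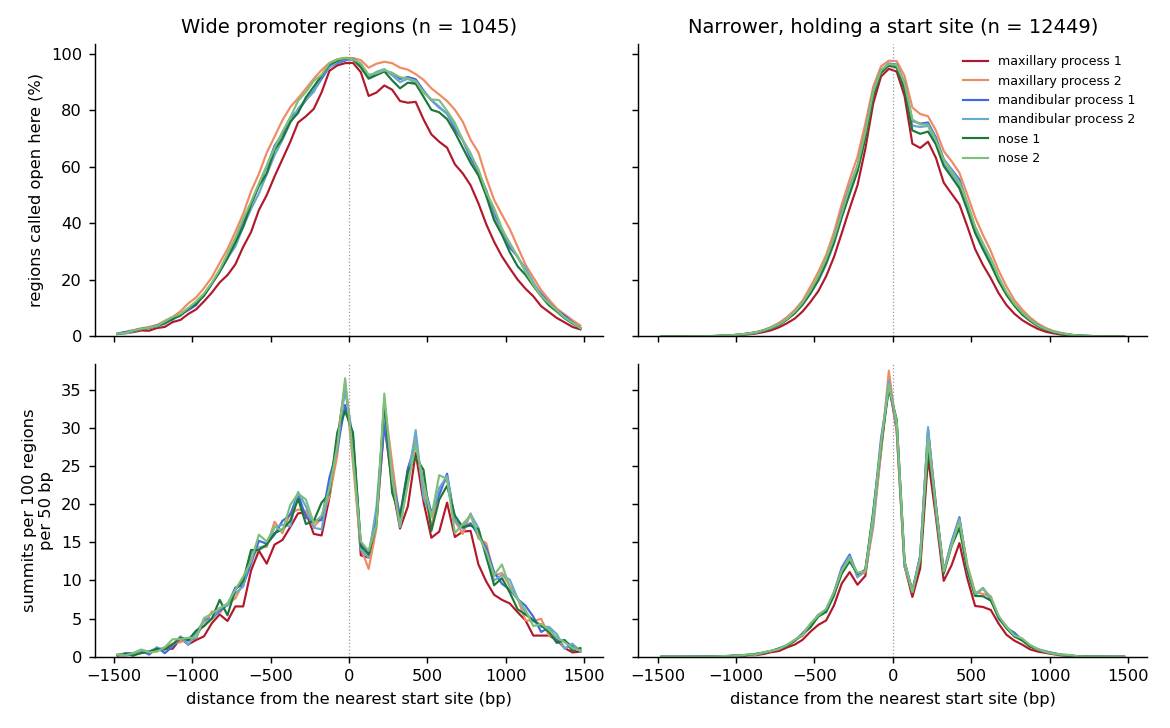
Share of regions covered by a peak (top, %) and summits per 100 regions per 50 bp (bottom) against distance from the nearest start site (bp, positive into the gene), 1 line per library, for wide regions (left) and narrower regions holding a start site (right). Both kinds peak at the start and at 230 and 410 bp, while the wide regions keep high values farther out, and the first maxillary process library runs lowest on the downstream side.

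The wide regions were built on longer stretches of CpG-rich DNA. In 1 kb around the strongest summit their median GC content was 66.3%, against 59.2% in the narrower regions holding a start site and 45.5% in distal regions. The ratio of observed to expected CpGs had medians of 0.825, 0.717 and 0.235. Both a GC content of at least 50% and a ratio of at least 0.6, a usual mark of a CpG island, were met by 948 of 1045 wide regions, or 90.7% (88.8 to 92.3%), by 69.4% (68.6 to 70.2%) of the narrower regions and by 3.57% (3.41 to 3.73%) of the distal ones. Around the start site itself, the first 100 bp of the gene held 11.5 CpGs per 100 bp in the wide and 9.21 in the narrower regions, and 500 bp into the gene the densities were 8.44 and 4.42. At 2 kb on either side the wide regions were no richer, with 42.4% and 42.7% G and C against 44.8% and 45.4%.

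**Figure D3:**
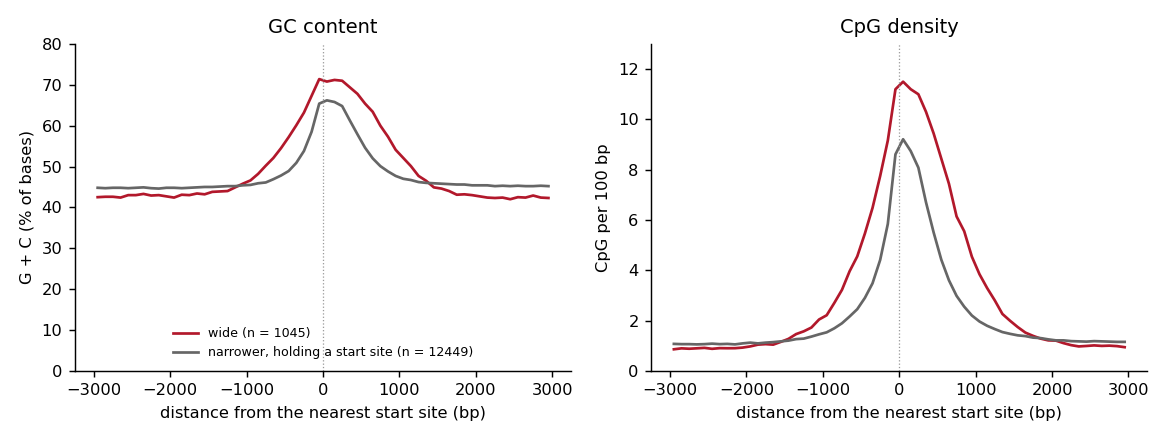
GC content (left, % of bases) and CpGs per 100 bp (right) in steps of 100 bp against distance from the nearest start site (bp, positive into the gene), pooled over wide regions (red) and narrower regions holding a start site (grey). The red curves are higher and broader near the start, with 11.5 against 9.21 CpGs per 100 bp just inside the gene, and fall below the grey ones in GC content beyond 2 kb.

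A small group of wide regions lacked this composition. In 8 of the 1045, or 0.766%, GC content in 1 kb was under 50%. Magi2, a gene for a synaptic scaffold protein, had one wide region at 49.0% with a CpG ratio of 0.375 (chr5:19907412-19909479) and another at 66.9% and 0.694. Rapgef2, which encodes an exchange factor for the GTPase Rap, likewise had one at 42.7% and 0.290 and one at 69.8% and 0.913. The histone gene Hist1h2be stood at 45.7% and 0.559.

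Of 11 short motifs searched on both strands within 100 bp of the strongest summit, the GC box, GGGCGG, was present in 74.2% (71.4 to 76.7%) of the wide regions, 63.2% of the narrower regions holding a start site and 10.3% of the distal regions. Within steps of 5 percentage points of GC content the GC box shares were close, for example 60.1% and 58.4% at 60 to 65% GC and 81.9% and 81.2% at 70 to 75% GC. These steps are not of the GC content in 1 kb given above. They place 103 wide regions at 80 to 85%, whereas the 90th percentile in 1 kb was 73.6%. The ETS site, CCGGAAG, went the other way, at 5.74% in the wide, 13.9% in the narrower and 1.36% in the distal regions. Its share was lower in the wide regions in each of the 6 steps from 55 to 85% GC, for example 7.34% against 16.5% at 65 to 70% and 7.87% against 12.3% at 70 to 75%. The letters CCAAT, bound by NF-Y, were found in 27.9% and 30.9%, the cAMP response element TGACGTCA in 2.39% and 3.0%, the YY1 site AAGATGGC in 3.06% and 3.52%, the E-box CACGTG in 7.18% and 7.82% and the NRF1 site GCGCATGCG in 1.82% and 2.62% of the wide and narrower regions. The TATA box letters TATAAA were found in 1.91% and 2.59%, the homeodomain core TAATTA in 0.574% and 0.699%, the AP-1 site TGACTCA in 1.15% and 1.64% and the TEAD site GGAATG in 5.36% and 6.58%. Without regard to GC content, the GC box was the 1 motif of the 11 with a higher share in the wide regions at 100 bp on each side. At 50 bp the homeodomain core was also higher, at 0.287% against 0.169%. Within the GC steps, CCAAT was higher in the wide regions in 4 of 6, for example 43.7% against 35.8% at 60 to 65% GC, GGAATG in 5 of 6 and the GC box in 3 of 6. The ETS site stayed lower with other windows, at 2.68% against 8.34% within 50 bp and 12.2% against 20.7% within 250 bp. The window searched was set by the strongest summit, not by the start site. That summit lay within 100 bp of the start in 54.1% of the wide regions and 72.2% of the narrower regions holding a start site. The part of this distance in the motif shares, that of the ETS site included, was not tested. A match is a description of the letters, and none of these shares was tested.

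By gene, 1038 of the 13281 genes with a promoter region called in all lists, or 7.82%, were nearest to a wide one, and counts of list genes are read against that share. Lists were written by hand or by gene symbol. Genes that write, read or reset chromatin marks were well represented, with 9 of 28 open chromatin regulators, or 32.1% (17.9 to 50.7%), and a median widest promoter region of 1370 bp against 961 bp over all open genes. They were the DNA methyltransferase gene Dnmt3a (2329 bp), the remodeller gene Chd7 (2285 bp), the histone demethylase gene Kdm6a (1987 bp), the insulator protein gene Ctcf (1680 bp), the Polycomb genes Ezh2 (1651 bp), Suz12 (1626 bp) and Bmi1 (1596 bp), the methylcytosine oxidase gene Tet3 (1589 bp) and the acetyltransferase gene Ep300 (1587 bp). Dnmt3a (chr12:3806297-3808625) was covered over 1757 and 2166, 2010 and 1969, and 2070 and 1920 bp in the maxillary, mandibular and nose libraries. Chd7 was covered over 1549 and 2226, 2095 and 2057, and 2050 and 2027 bp and held 363 CpGs, the most of any wide region. In a list added after these values were known, 8 of 40 histone lysine methyltransferases and demethylases, or 20% (10.5 to 34.8%), had a wide region, among them Kdm7a (2053 bp), Kmt2c (2033 bp) and Nsd2 (1714 bp), with Kdm6a and Ezh2 in both lists.

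The Kruppel-like and Sp factors, which bind the GC box, had 6 of 21 open genes with a wide region, or 28.6% (13.8 to 50.0%), namely Klf12 (2294 bp), Sp4 (2068 bp), Klf15 (1858 bp), Sp1 (1715 bp), Klf11 (1620 bp) and Klf10 (1503 bp). Klf12 (chr14:100284270-100286563) was covered over 1829 and 2060, 1739 and 1738, and 1918 and 2085 bp in the maxillary, mandibular and nose libraries. Sp1 was covered evenly, over 1686 and 1665, 1710 and 1701, and 1670 and 1641 bp. Among lists added later, the cyclic nucleotide phosphodiesterases had 7 of 20, or 35.0% (18.1 to 56.7%), led by Pde5a (2136 bp), Pde3b (1912 bp) and Pde4d (1772 bp). The axon guidance semaphorins and plexins had 5 of 26, or 19.2% (8.51 to 37.9%), led by Plxnc1 (2150 bp) and Plxna1 (2006 bp). Potassium channels had 9 of 72, or 12.5% (6.72 to 22.1%), led by Kcnc2. F-box genes, which select proteins for ubiquitination, had 7 of 59, or 11.9% (5.87 to 22.5%), led by Fbxo11 (2255 bp). Both of these intervals include the 7.82% over all open genes. The lists added later were picked with these values known, and the first lists were chosen with earlier results of these data known. The shares of neither, chromatin regulators and Kruppel-like and Sp factors included, are independent evidence.

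Ribosomal proteins, components of the translation machinery, had 0 of 80 open genes with a wide region, which allows a share of up to 4.58% (Wilson), and a median widest promoter region of 682 bp. Proteasome subunits had 0 of 31 (median 707 bp) and RNA polymerase II and elongation genes 0 of 16 (median 841 bp), with upper limits of 11% and 19.4% that include the 7.82% over all open genes. Mitochondrial ribosomal proteins had 1 of 68, Mrpl40 (2253 bp), whose region also holds the start of the histone chaperone gene Hira, and translation initiation factors had 1 of 49, Eif4g2 (1702 bp). Respiratory chain subunits had 3 of 73, Ndufa1, Uqcrc2 and Ndufs4. Histone genes had 2 of 58, H1fx and Hist1h2be. The intervals of these 4 lists also reached 7.82%, with upper limits of 7.87, 10.7, 11.4 and 11.7%. Zfp zinc-finger genes had 13 of 316, or 4.11% (2.42 to 6.91%), led by Zfp711 (1916 bp). When a gene counted by any start site inside a wide region, ribosomal proteins had 1 of 82, RNA polymerase II and elongation genes 1 of 17 and Zfp genes 16 of 320.

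Lists of genes of the face had counts of 0 to 4. General facial mesenchyme genes had 4 of 30 open genes with a wide region, or 13.3% (5.31 to 29.7%), all transcription factors of the mesenchyme: Sox11 (1915 bp), Twist1 (1830 bp), Meox2 (1814 bp) and Zeb1 (1789 bp). Twist1 (chr12:33956903-33958732), which is required for cranial neural crest mesenchyme, was covered over 1434 and 1779, 1760 and 1522, and 1580 and 1769 bp. The upper jaw and frontonasal list had 1 of 13, Zic2 (1536 bp), a zinc-finger gene of forebrain development. Zic2 had folds of 4.97 and 4.53 in the maxillary, 4.15 and 3.64 in the mandibular and 5.45 and 4.16 in the nose libraries. After centring these were −0.25 and −0.65, −0.68 and −0.82, and −0.21 and −0.64, so the mandibular values were the lowest. The placode list had 1 of 16, Six4 (1802 bp), facial signals 1 of 27, Bmp2 (1653 bp), and immediate early genes 1 of 25, Ier5 (1734 bp). Hox genes, 15 of 39 of which were open, had none with a wide region.

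Lists of marker genes of other cell types were short, and their counts lay near what the overall share gives. Neurons had 1 of 10, Elavl4 (1506 bp), which encodes a neuronal RNA-binding protein, and endothelium 1 of 9, Cldn5 (1500 bp). Surface and oral epithelium had 0 of 13, cartilage and bone 0 of 9, head muscle 0 of 4, Schwann precursors and melanoblasts 0 of 6 and blood and macrophages 0 of 2. Forkhead genes had 3 of 29, Foxn2 (1962 bp), Foxp4 and Foxk2, Sox genes 1 of 18, Sox11, cell cycle genes 2 of 25, Cdk6 (2191 bp) and Ccne2, collagens 1 of 33, Col19a1, and protocadherins 1 of 20, Pcdh9. Of the larger families by symbol, solute carriers had 18 of 245, or 7.35%, near the 7.82% over all open genes, led by Slc6a9 (1989 bp), and Tmem genes 9 of 177, or 5.08%, led by Tmem229a (2002 bp). Ubiquitin-conjugating enzymes had 4 of 34, led by Ube2d3 (1872 bp), ubiquitin-specific proteases 3 of 44, led by Usp27x (1782 bp), kelch-like genes 2 of 31, led by Klhl29 (2252 bp), and Rab GTPases 2 of 54, Rab43 (1695 bp) and Rab31 (1663 bp). T-box genes (11 open), keratins (5), olfactory receptors (11) and vomeronasal receptors (3) had none.

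**Figure D4:**
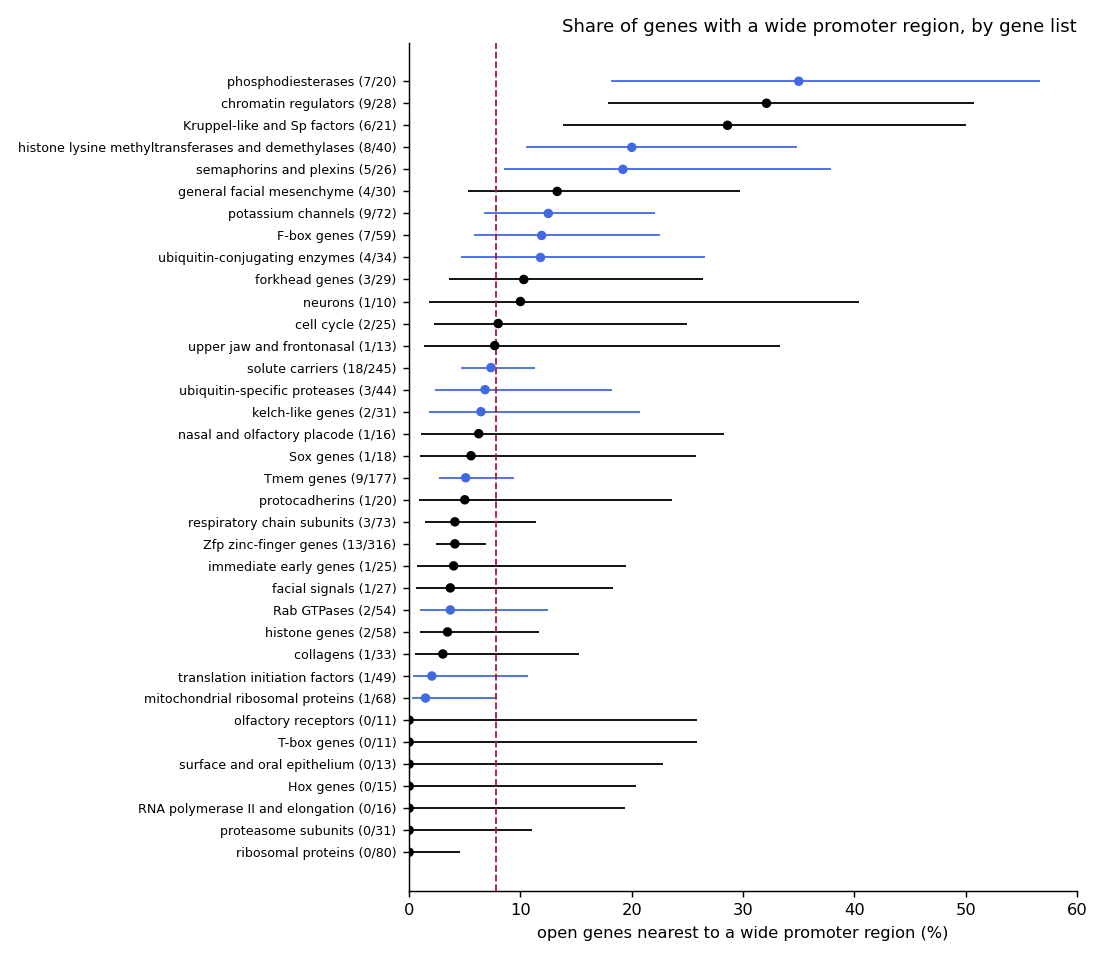
Share of genes nearest to a wide promoter region (points, % of genes with a promoter region called in all lists, with 95% Wilson intervals) for the gene lists described that have at least 10 such genes, with lists added after the values were known in blue and the 7.82% over all open genes dashed. Phosphodiesterases, chromatin regulators and Kruppel-like and Sp factors lie highest, at 35.0%, 32.1% and 28.6%, and ribosomal proteins, proteasome subunits and 5 further lists lie at 0. The lists in black were chosen with earlier results of these data known.

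The genes at wide regions were long and set apart from their neighbours. Their length had a median of 61.3 kb, against 25.8 kb at the narrower regions holding a start site, and the next gene's start lay a median of 61.3 kb away, against 26.8 kb. The middle 50% of lengths ran from 23.7 to 133 kb and from 10.9 to 64.9 kb, so the sets overlapped. Among the 10 widest, Schip1 spanned 562 kb and Kcnc2 195 kb, but Tpbg 4.66 kb and Chst2 7.43 kb. By chromosome, the wide share of promoter regions ran from 3.31% on chromosome 11 and 3.34% on chromosome 7 to 8.42% on chromosome 1 and 8.27% on chromosome 10. Over 20 chromosomes the share fell with gene density (Spearman correlation −0.829, a description across chromosomes of the same libraries).

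In 52.5% (49.5 to 55.5%) of the wide regions 2 or more start sites lay inside, against 45.6% (44.8 to 46.5%) of the narrower regions holding a start site. Start sites of 2 or more genes lay in 96 wide regions, or 9.19% (7.58 to 11.1%), against 7.31% (6.87 to 7.78%) of the narrower regions holding a start site, and in 90 of the 96 the genes lay on both strands. A start of a noncoding RNA lay in 15.1% (13.1 to 17.4%) against 7.70% (7.25 to 8.18%). Among the widest shared regions, 4 joined Lpxn with Zfp91 (2372 bp), Mrpl40 with Hira (2253 bp), the mitochondrial pyruvate carrier gene Mpc2 with Dcaf6 (2188 bp) and Ccdc148 with the junctional plakophilin gene Pkp4 (2059 bp). A longer region covers more bases in which a start can lie, so these shares are descriptions with no test.

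For 7 genes both of 2 start sites lay in wide regions of their own: Magi2, Oxr1, Phactr2, Rapgef2, Satb1, Sema6d and Stox2. Satb1, a chromatin organizer gene, had regions of 1709 and 1547 bp with folds of 13.2 and 8.15, 9.73 and 8.73, and 9.89 and 9.99 at the first and of 6.35 and 6.77, 6.25 and 6.03, and 7.19 and 7.28 at the second. The second was lower in every library. Stox2 had regions of 2258 and 1631 bp and Oxr1, an oxidation resistance gene, of 1774 and 1595 bp.

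The labels were not used to choose the regions. Each region had to be called in all 6 lists, however, so a promoter closed in any label could not enter. The contrasts therefore concern only differences in fold among regions open in every library. Each library's highest fold per region was put on the log2 scale, centred on the median of the 69940 regions called in all lists and fitted with limma, with Benjamini-Hochberg adjustment over all of them. No wide region passed an adjusted p of 0.05 in any of the 3 contrasts. Between maxillary and mandibular process, 0 of 1045 wide regions were called where 2.51% of all regions were. Between maxillary process and nose it was 0 where 2.91% of all regions were called, and between mandibular process and nose 0 where 4.74% were. At an unadjusted p under 0.05 there were 7, 4 and 6 wide regions, or 0.670, 0.383 and 0.574%, against 13.5, 13.7 and 16.3% of all regions. These shares of wide regions lie below the 0.05 that a calibrated fit gives without any difference. The 0 calls thus do not show that the labels are alike. Over wide regions the median gap within a label was 0.43 for the maxillary, 0.10 for the mandibular and 0.12 for the nose libraries. The maxillary gap enters the spread of the fit, and its part was not tested. Narrower regions holding a start site were called in 15, 31 and 61 of 12449 cases and distal regions in 1732, 1992 and 3225 of 52223.

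The size of the differences gave the same order. Differences of wide regions ran from −0.39 to 0.52 (maxillary minus mandibular), from −0.54 to 0.51 (maxillary minus nose) and from −0.67 to 0.46 (mandibular minus nose) on the log2 scale, with a median standard error of 0.21 in each contrast. None reached a log2 difference of 1, which 0.941, 1.02 and 1.58% of all regions did. The medians of the wide regions were 0.04, −0.02 and −0.06, against 0.02, −0.01 and −0.03 over all regions. The median absolute difference was 0.08, 0.08 and 0.09 in wide regions, 0.10, 0.11 and 0.11 in narrower ones holding a start site and 0.22, 0.22 and 0.24 in distal ones. Distal regions also had lower folds, with medians of 5.43 to 6.71 by library, and the part of the fold level in these differences was not tested.

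**Figure D5:**
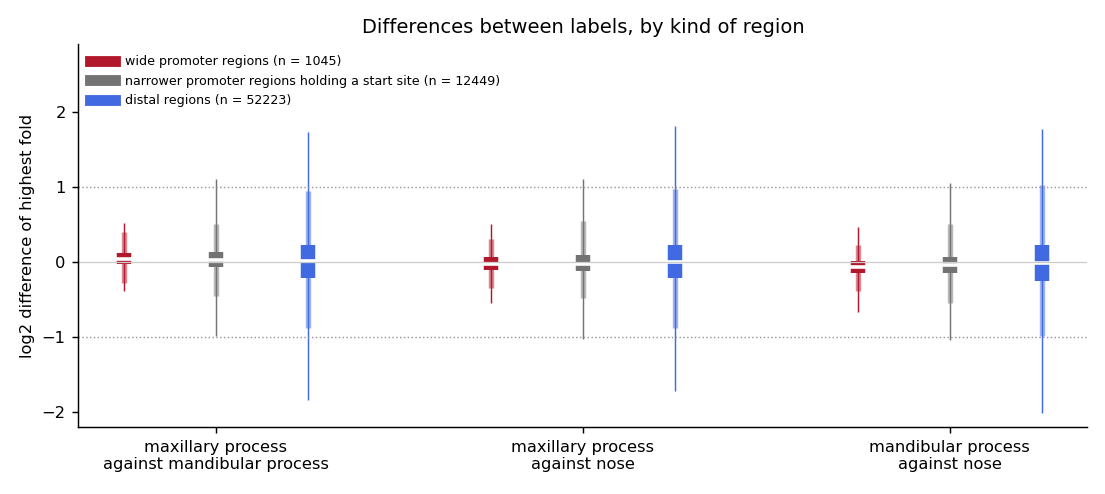
Log2 differences of the highest fold between labels for wide promoter regions (red), narrower promoter regions holding a start site (grey) and distal regions (blue), in 3 contrasts. Thin lines give the whole range, pale bars the 1st to 99th percentile, thick bars the middle 50% and white ticks the median. No wide region reaches the dotted lines at 1 and −1, and the distal bars are the longest in each contrast.

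The nearest to a call were single genes. Rapgef2, at its GC-poor region (chr3:79144667-79146213), had folds of 5.18 and 6.07 in the maxillary process libraries, 4.88 and 5.10 in the mandibular process libraries and 7.78 and 7.71 in the nose libraries. The nose values lay above the other 4 libraries. The mandibular minus nose difference was −0.67 ± 0.25 (SE, limma adjusted p = 0.119). Thrb, the thyroid hormone receptor beta gene, followed with 6.84 and 5.52 against 8.72 and 8.52 and a difference of −0.52 ± 0.23 (limma adjusted p = 0.213), and Lpl, the lipoprotein lipase gene, with 6.42 and 7.26 against 9.65 and 8.99 and −0.48 ± 0.23 (limma adjusted p = 0.256). In both, the nose libraries were higher than the mandibular ones without overlap.

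Between maxillary and mandibular process the smallest adjusted p belonged to Atg2b, an autophagy gene whose region also holds the start of Gskip, with folds of 13.9 and 10.8 against 7.58 and 9.68 and a difference of 0.52 ± 0.20 (limma adjusted p = 0.162). Pde4d, a cyclic AMP phosphodiesterase gene, had 13.4 and 11.5 against 9.25 and 9.01 (0.46 ± 0.19, limma adjusted p = 0.228) and Sema6d, at its region of 1610 bp, 12.5 and 9.51 against 8.19 and 7.81 (0.46 ± 0.21, limma adjusted p = 0.294). In all 3 the first maxillary process library was the highest of the 6. Between maxillary process and nose, Fam20a, a gene of enamel formation, had 8.81 and 8.47 against 6.04 and 5.87 (0.51 ± 0.23, limma adjusted p = 0.273), Zfp592 had 10.6 and 11 against 7.91 and 7.88 (0.43 ± 0.21, limma adjusted p = 0.330) and Dlgap2, a synaptic scaffold gene, 4.34 and 4.91 against 9.11 and 4.81 (−0.54 ± 0.27, limma adjusted p = 0.339). In Dlgap2 the first nose library was the highest of the 6, and after centring the second stood at −0.42 against −0.45 and −0.53 in the maxillary libraries.

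When −log10 q took the place of the fold, a few wide regions passed, 1, 0 and 6 of 1045 in the 3 contrasts, where 3.90, 4.15 and 6.60% of all regions did. Atoh1, a proneural transcription factor gene, was called between maxillary and mandibular process (log2 difference of −log10 q 1.04 ± 0.32, limma adjusted p = 0.0347). Between mandibular process and nose 6 were called, all lower in the mandibular process: Thrb (−1.14 ± 0.32, limma adjusted p = 0.00994), Rapgef2 (−1.57 ± 0.47, limma adjusted p = 0.0192), Atoh1 (−0.99 ± 0.32, limma adjusted p = 0.0335), D930020B18Rik (−1.06 ± 0.34, limma adjusted p = 0.0354), Lpl (−0.96 ± 0.32, limma adjusted p = 0.0416) and Pde4d (−0.91 ± 0.30, limma adjusted p = 0.0429). Atoh1 and D930020B18Rik were named after their values were seen.

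Libraries of 1 label were no closer to each other over the wide regions than libraries of different labels. The median absolute difference in centred log2 fold averaged 0.216 within labels and 0.187 between labels (difference −0.030, one-sided exact permutation test over 15 divisions of the 6 libraries into pairs, p = 0.933, smallest possible p 0.0667). Over distal regions the averages were 0.228 within and 0.287 between labels (difference 0.059, exact permutation p = 0.0667, the smallest the design allows). The large gap over wide regions was between the maxillary process libraries, at 0.427, with centred medians of 0.72 and 0.30, while the mandibular pair differed by 0.104, the nose pair by 0.118 and the 4 mandibular to nose pairs by 0.0991 to 0.145. Without the maxillary libraries, pairs within and between the remaining labels thus overlapped. List length moved with the maxillary gap, at 219779 and 299726 summits, and its part was not tested.

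Genes known to mark parts of the face had no wide region by which the labels could be checked. The widest promoter regions of Hand2, Dlx5, Dlx6, Alx1, Alx4 and Pou3f3 called in all lists spanned 486, 852, 767, 1146, 709 and 1241 bp, and none passed an adjusted p of 0.05 in a contrast with limma. Dlx6, a homeobox gene of the lower jaw, had folds of 3.37 and 3.57 in the maxillary, 4.68 and 5.96 in the mandibular and 5.24 and 6.42 in the nose libraries (maxillary minus mandibular −0.60 ± 0.26, limma adjusted p = 0.246). Hand2, another lower jaw gene, had 4.73 and 4.30, 4.76 and 3.61, and 7.06 and 5.0.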

How the data were processed

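Chromatin accessibility was measured by ATAC-seq in 6 libraries, 2 for each label (maxillary process, mandibular process, nose). Per the labels, nuclei of fresh tissue were treated with Tn5 and sequenced as single-end 50 bp reads. The submitters' processing notes name mm10, Bowtie2 and SAMtools, with no versions. The peak caller and its settings were not given in the sources used here. The authors deposited 1 peak list per library, with 1 line per summit. The deposited score restates the caller's −log10 p as a whole number after multiplication by 10, with a ceiling of 1000. The deposited fold was read as a ratio of summit height to local background within a library. The deposited −log10 p and −log10 q columns were read as the caller's confidence. The depth in reads is unknown, and fold is comparable between libraries only after centring.

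Intervals were merged over lists, and start sites were taken from GENCODE M21 basic annotation and sequence from GRCm38 as distributed by RefSeq. A region's value per library was its highest fold, as log2 with no pseudocount, centred on the median of regions called in all 6 lists. Contrasts were fitted over all 6 libraries with limma 3.58.1 in R 4.3.3 and adjusted by the Benjamini-Hochberg method over 69940 regions. A difference passed at an adjusted p of 0.05. Distances between libraries were tested by an exact permutation over pairings. Other steps used Python 3.11.15, numpy 2.4.6, pandas 2.3.3, scipy 1.17.1 and pysam 0.24.0. The fit was tested on simulated data. The members and lists were chosen with earlier results of these data known. A gene list was corrected, and 14 gene families were added, after seeing the data. Some lists, genes and sequences are not reported here. Named genes were the 10 widest regions, those nearest the width limit, the 3 smallest adjusted p per contrast, list genes and label-check genes, with the sequence examples, extremes and shared regions added. Alternatives covered width, distance, confidence, list length, centring, the value tested, the motif window (50 and 250 bp on each side), the replicate block and each library left out.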

Additional observations from a re-analysis of the deposited data

How the results depend on the processing

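The number of wide promoter regions follows the rule that chose them: 6199 at a minimum width of 1000 bp, 79 at 2000 bp and 31 when every list had to hold 1 interval of 1500 bp. It was 957 with the summit within 500 bp, 969 and 907 at a −log10 q of at least 3 and 5, and 989 at equal list length (chosen after seeing the data). Leaving out 1 library gave 850 to 1014 regions, with 841 to 1005 of the 1038 genes shared. With −log10 q in place of the fold, 1 wide region was called between maxillary and mandibular process, 0 between maxillary process and nose and 6 between mandibular process and nose, among them Rapgef2 (−1.57), Thrb (−1.14) and Lpl (−0.96). The count was 0 in each contrast under every other alternative run, including each library left out. Unadjusted p under 0.05 in the 3 contrasts, in the order above, was met by 24, 78 and 13 wide regions without the first maxillary process library and by 156, 102 and 17 without the second. Calls over all regions, in the same order, were 0, 0 and 0 with the mean fold, 3, 8 and 35 when only promoters were tested, 145, 148 and 397 at a −log10 q of at least 5, and 2731, 2903 and 4619 on −log10 q. They ran from 54 to 1830, 10 to 1987 and 1175 to 2053 when 1 library was left out. Deviations of libraries with the same replicate number were little correlated (r over all regions 0.00295, 0.0724 and 0.0304). With 2 libraries a label, these values cannot tell whether the numbers pair the samples. With the replicate block, 0 wide regions were called. Of all regions, 2233, 2476 and 3921 were called with the block and 1757, 2037 and 3313 without it. The distance between libraries over wide regions gave −0.025, −0.024 and −0.016 with other values (exact permutation p = 0.60, 0.933 and 0.80). Motif shares rose with the window searched, for the ETS site from 2.68% at 50 bp to 12.2% at 250 bp and for TATAAA from 0.766 to 4.78%. With 2 libraries a label and no reads used here, small differences at these promoters may not be detectable.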

Other observations

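Regions of the same width with their strongest summit over 1000 bp from a protein-coding start were rarer. Of 52223 distal regions called in all lists, 173, or 0.331%, spanned at least 1500 bp, with a median width of 1649 bp and a highest of 2507 bp. Their median GC content in 1 kb was 54.8% and their CpG ratio 0.448. Some were still at promoters, since 21 held a protein-coding start and 31 lay within 2 kb of one. An annotated start of any kind lay in 42 of the 173, or 24.3%. The other 131 had a median width of 1628 bp, a median GC content of 51.9% and a median distance of 53.9 kb to the nearest protein-coding start, and 34 of them met the GC and CpG limits used for promoters. The widest of these spanned 2214 bp (chr7:112389631-112391844, 46.2% GC), nearest to Mical2, a gene for an actin-oxidizing enzyme. The next spanned 2124 bp (chr2:12327214-12329337, 46.3% GC), nearest to the integrin gene Itga8. A region of 2095 bp nearest to Kalrn, a gene for a signalling protein of neurons, was 78.7% GC with a CpG ratio of 0.856 (chr16:34572265-34574359). These regions were picked by width and no test was run on them.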
